A study of Mus musculus with 18 samples.

Results

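The mRNA of metaphase II oocytes from 12-month-old (12m) mice that had been matured in vitro in co-culture with MSC was set against that of metaphase II oocytes from 6-week-old (6wk) mice matured in vitro without it. Each group held 3 single oocytes, so the comparison used 6 of the 18 oocytes of the series, picked by their source labels, and covered the 12037 genes of 47069 listed that passed a filter on low counts. The mice of both groups were C57BL/6 wild type. The co-culture ran overnight, and the labels do not spell out MSC. A further 3 oocytes from 12m mice, matured in vitro without MSC (plain 12m), stood beside the comparison to show where older oocytes lay without co-culture. Oocytes from 6wk mice matured with MSC (co-cultured 6wk) are given for distances and single genes. Germinal vesicle (GV) oocytes of both ages, collected before meiosis resumes, are given for single genes and for counts over all genes. The question was how near co-cultured older oocytes come to young ones. The groups differ in age and in co-culture at once.

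A metaphase II oocyte is the mature egg, arrested until fertilization. It makes almost no RNA of its own and lives on maternal mRNA that was stored while it grew, which it translates, masks or degrades in a set order. Cyclin B with Cdk1 and the Mos kinase hold the arrest, the anaphase-promoting complex ends it, and cohesin keeps sister chromatids together, a role that weakens as oocytes age. BMP and SMAD signalling links the oocyte with its cumulus cells, and mitochondria inherited by the embryo come from the egg.

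Each library was made by SMART-seq2, which copies polyadenylated RNA of a single cell, from the supernatant left after the nucleus of a lysed oocyte had been spun down. The labels name no animal or culture for an oocyte, so each group counts as 1 sample, no test was made, and the spread given is that between single oocytes. Total counts were 1914072, 7369629 and 4534897 in the co-cultured 12m oocytes and 4271400, 3080516 and 3504660 in the plain 6wk oocytes. Genes with a count numbered 8612, 10948 and 11361 in the co-cultured 12m oocytes and 11808, 9214 and 9036 in the plain 6wk oocytes. Of 15 oocyte markers, 14 had a count in all 6 oocytes; Figla did not. Summed cumulus and granulosa markers were at 77.4 to 206 CPM (counts scaled to the library total) in co-cultured 12m oocytes and at 148 to 1374 CPM in plain 6wk oocytes, where Serpine2 led. Summed mesenchymal stromal markers were at 59.4 to 113 CPM in co-cultured 12m oocytes and at 33.3 to 2441 CPM in plain 6wk oocytes, and the defining genes Col1a1, Col1a2, Thy1, Eng, Nt5e, Pdgfra, Pdgfrb and Vcam1 had no count in either group. Of the 30 stromal markers 16 had a count in co-cultured 12m oocytes and 10 in plain 6wk oocytes, and Vim, Acta2, Tagln, Col3a1, S100a4 and Timp3 had counts in co-cultured 12m oocytes and none in plain 6wk oocytes. In plain 12m oocytes 8 of the stromal markers had a count. Vim, Acta2, Tagln, Col3a1 and Timp3 had none there, and S100a4 had counts. The list's median difference was 0.52 over its 7 measured members, and its part in the results was not tested. Plain 6wk oocyte 2 held the highest stromal sum, through Spp1, and plain 6wk oocyte 1 the highest granulosa sum. Titles of all 12m oocytes start with O and those of all 6wk oocytes with Y, and the labels do not explain the prefix or say whether mice of both ages came from the same colony, so age, colony and whatever the prefix stands for cannot be told apart. The prefixes also carry a number. Co-cultured 12m oocyte 1 has O04 and oocytes 2 and 3 have O05, plain 12m oocytes 1 and 2 have O04 and oocyte 3 has O05, and plain 6wk oocyte 1 has Y01 and oocytes 2 and 3 have Y03. GV 12m oocytes have O01, O04 and O05, and GV 6wk oocytes have Y01, Y01 and Y03. No prefix occurs in both 12m and 6wk oocytes, so no value of 12m against 6wk oocytes within a prefix can be had. O04 and O05 each occur in both the co-cultured and the plain 12m group, in unequal numbers.

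Over the whole transcriptome, the co-cultured 12m oocytes were about as far from the plain 6wk oocytes as the oocytes of either group were from each other, and about as far as the plain 12m oocytes. This rested in part on plain 6wk oocyte 1, which lay far from the others of its group. The distance between a pair of oocytes was taken as the root mean square difference in log2(CPM + 1) over the 12037 genes. It was 1.75 ± 0.22 between co-cultured 12m and plain 6wk oocytes (SD over 9 pairs, which share oocytes), against 1.77 ± 0.14 among the 3 pairs of co-cultured 12m oocytes and 1.87 ± 0.28 among the 3 pairs of plain 6wk oocytes. Plain 12m oocytes lay 1.73 ± 0.09 from the plain 6wk oocytes, so the distances of both 12m groups to the 6wk oocytes overlapped. Spearman's rho across genes, which are not independent, averaged 0.746 between co-cultured 12m and plain 6wk oocytes and 0.753 between plain 12m and plain 6wk oocytes. Between group means, the distance to plain 6wk oocytes was 0.94 for co-cultured 12m and 0.98 for plain 12m oocytes, and that between the 12m groups was 0.91. Co-cultured 6wk and plain 6wk oocytes, which share an age, were 0.84 apart by this measure. Co-cultured 12m and co-cultured 6wk oocytes were 0.88 apart. Means of 3 oocytes carry the spread between single oocytes, so these small differences do not rank the groups.

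**Figure D1:**
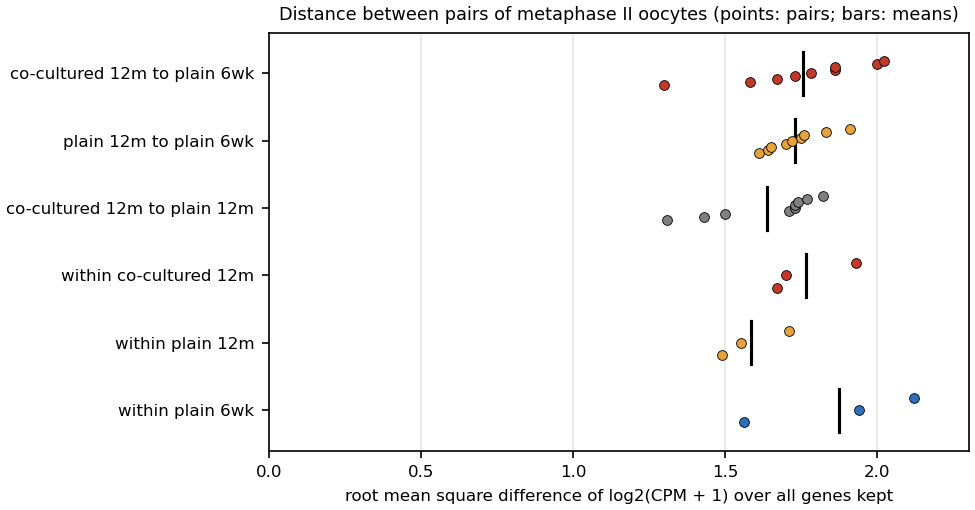
Distance between pairs of metaphase II oocytes on the x axis (root mean square difference of log2(CPM + 1)) for each kind of pair; points are pairs and bars are means. The 9 pairs of co-cultured 12m with plain 6wk oocytes run from 1.3 to 2.02, across the ranges within the groups.

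The low end of that range came from a single pair. Co-cultured 12m oocyte 2 and plain 6wk oocyte 1 lay 1.3 apart, with a rho of 0.853, and each was nearer to the other than to any oocyte of its own group. The nearest oocyte of all to plain 6wk oocyte 1 was co-cultured 6wk oocyte 1, at 1.1, which shares its title prefix Y01. Co-cultured 12m oocyte 3 was nearest to plain 12m oocyte 3, at 1.31, which shares its title prefix O05. Co-cultured 12m oocyte 1 was nearest to co-cultured 12m oocyte 3, at 1.7. The distance of co-cultured 12m to co-cultured 6wk oocytes was 1.58 ± 0.2 and that to plain 12m oocytes 1.64 ± 0.18 (SD over 9 pairs each). Without plain 6wk oocyte 1, the distance between the groups was 1.79, and the remaining pair of plain 6wk oocytes lay 1.56 apart. Without both oocytes of the close pair, it was 1.72 between the groups, against 1.70 within the co-cultured 12m and 1.56 within the plain 6wk oocytes.

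Most genes lay within 2-fold between the groups. A gene was counted as past 2-fold where the group means of log2(CPM + 1) differed by at least 1. In co-cultured 12m against plain 6wk oocytes 1798 genes (14.9%) were higher and 1332 (11.1%) lower by this measure, and the other 8907 genes (74.0%) were within 2-fold. Every co-cultured 12m oocyte stood above every plain 6wk oocyte for 336 of the higher genes (2.79% of all), and below for 251 of the lower genes (2.09%). For plain 12m against the same 6wk oocytes the counts were 2167 (18%) higher and 1093 (9.08%) lower, with 611 (5.08%) and 210 (1.74%) free of overlap. For co-cultured 12m against plain 12m oocytes they were 1236 (10.3%) higher and 1826 (15.2%) lower, with 239 (1.99%) and 348 (2.89%) free of overlap. These 3 comparisons share libraries, and the first is the sum of the other two. The median difference over all genes was 0.04 for co-cultured 12m against plain 6wk, 0.16 for plain 12m against plain 6wk and −0.09 for co-cultured 12m against plain 12m oocytes.

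Differences past 2-fold were least frequent among the most abundant mRNAs and most frequent at 5 to 20 CPM. Of the 1457 genes with a mean of 100 CPM or more, 170 (11.7%) were past 2-fold between co-cultured 12m and plain 6wk oocytes, against 589 (22.9%) of the 2569 genes between 20 and 100 CPM, 1188 (37.7%) of the 3155 genes between 5 and 20 CPM and 1183 (24.4%) of the 4856 genes under 5 CPM. Without plain 6wk oocyte 1 the higher genes numbered 2868, and without both oocytes of the close pair 2853 were higher and 1913 lower. Without co-cultured 12m oocyte 1, the library with the fewest counts, 2393 were higher and 1138 lower.

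Among the 30 genes with the largest differences free of overlap, 15 in each direction, some had both 12m groups apart from plain 6wk oocytes. The 30 were chosen by the values of these same 6wk oocytes. The distance of plain 12m oocytes from them is therefore in part set by the choice. Dnajb14, which encodes a membrane-bound partner of HSP70 in the endoplasmic reticulum (chromosome 3, 137867675 to 137916557, GRCm38, plus strand), had 48.1, 19 and 22.9 CPM in co-cultured 12m, 44.4, 54.6 and 18.2 CPM in plain 12m and 354, 1117 and 732 CPM in plain 6wk oocytes. It was 24.5-fold lower in co-cultured 12m than in plain 6wk oocytes, with summed counts of 361 (exact Poisson 95% interval 324.7 to 400.2) in co-cultured 12m and 7748 (7576.4 to 7922.5) in plain 6wk oocytes. The highest 12m oocyte was far below the lowest young oocyte for this gene. GV oocytes had 45.5, 34.9 and 50 CPM at 12m against 582, 100 and 391 CPM at 6wk. They are other libraries, but most share a title prefix with these groups. Age and prefix cannot be told apart in GV oocytes either.

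Tex19.1, expressed in germ cells and known for restraining retrotransposons (chromosome 11, 121146143 to 121148319), had 18.7, 40 and 30.6 CPM in co-cultured 12m, 33.3, 12.2 and 73.9 CPM in plain 12m and 177, 155 and 150 CPM in plain 6wk oocytes, 5.40-fold lower in co-cultured 12m than in plain 6wk oocytes. Its 3 young oocytes were close together and above every 12m oocyte. Prl8a2, a prolactin family gene best known from the decidua and placenta, had 0, 16.2 and 0 CPM in co-cultured 12m, 19.6, 0 and 0 CPM in plain 12m and 29.7, 34.7 and 60.6 CPM in plain 6wk oocytes. In each of the 12m groups 1 oocyte held all of its counts. Both genes were also lower, without overlap, in GV oocytes of 12m than of 6wk, with Tex19.1 at 22.9, 28.6 and 19.5 CPM at 12m and 79.1, 72.3 and 44.9 CPM at 6wk.

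Several genes had the opposite pattern. Akap2, which anchors protein kinase A, had 126, 56.1 and 17.2 CPM in co-cultured 12m, 88.3, 85.7 and 42.1 CPM in plain 12m and 3.15, 2.79 and 2.85 CPM in plain 6wk oocytes, 22.7-fold higher in co-cultured 12m than in plain 6wk oocytes. Its exons overlap those of Pakap, so reads of the pair may be split between them. Cgref1, which encodes a secreted calcium-binding protein, had 49.8, 15.1 and 9.87 CPM in co-cultured 12m, 55.6, 20.6 and 22 CPM in plain 12m and 0, 2.17 and 3.42 CPM in plain 6wk oocytes. Every 12m oocyte of both groups exceeded every plain 6wk oocyte for these genes, and Cgref1 did so in GV oocytes too, at 44.9, 32.1 and 8.76 CPM at 12m and 4.29, 0.485 and 1.06 CPM at 6wk. Zfp940, a zinc finger gene, had 71.6, 4.02 and 16.2 CPM in co-cultured 12m and 1.12, 2.17 and 2.85 CPM in plain 6wk oocytes, and its GV oocytes had 45.3, 45.9 and 15.4 CPM at 12m and 2.41, 5.58 and 1.77 CPM at 6wk.

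For a pair of further genes no count was found in plain 6wk oocytes. Gm37750, a short annotated stretch that the annotation marks as still to be checked experimentally (chromosome 9, 104053327 to 104053455, plus strand), had 59.6, 22 and 23.9 CPM in co-cultured 12m and 67.2, 64.8 and 28.6 CPM in plain 12m oocytes and no count in any plain 6wk oocyte. It was at least 42.9-fold higher in co-cultured 12m than in plain 6wk oocytes, against a floor of 3 counts per library. It also had no count in the co-cultured 6wk and GV 6wk oocytes, against 42.7, 35.4 and 11.3 CPM in GV 12m oocytes, so its counts were found in every 12m oocyte and in no 6wk oocyte of the series. Tmem214, an endoplasmic reticulum membrane protein gene whose exons overlap Gm43808, had 30.3, 5.95 and 13.8 CPM in co-cultured 12m and 32.3, 36.6 and 21.2 CPM in plain 12m oocytes, against no count in plain 6wk oocytes, at least 20.4-fold higher in the co-cultured ones. Unlike Gm37750 it was present in young GV oocytes, at 20.4, 18.7 and 7.43 CPM, below the 32.9, 56.7 and 39 CPM of GV 12m oocytes.

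Over the 30 genes, 2 of the 15 higher ones (Cgref1 and Zfp940) and 3 of the 15 lower ones (Dnajb14, Prl8a2 and Tex19.1) were at least 2-fold apart in the same direction and free of overlap in GV oocytes. Over all genes 297 (2.47%) were higher and 221 (1.84%) lower in GV 12m than in GV 6wk oocytes by that rule. The rest of the 30 overlapped or differed by less than 2-fold between GV oocytes of the ages.

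**Figure D2:**
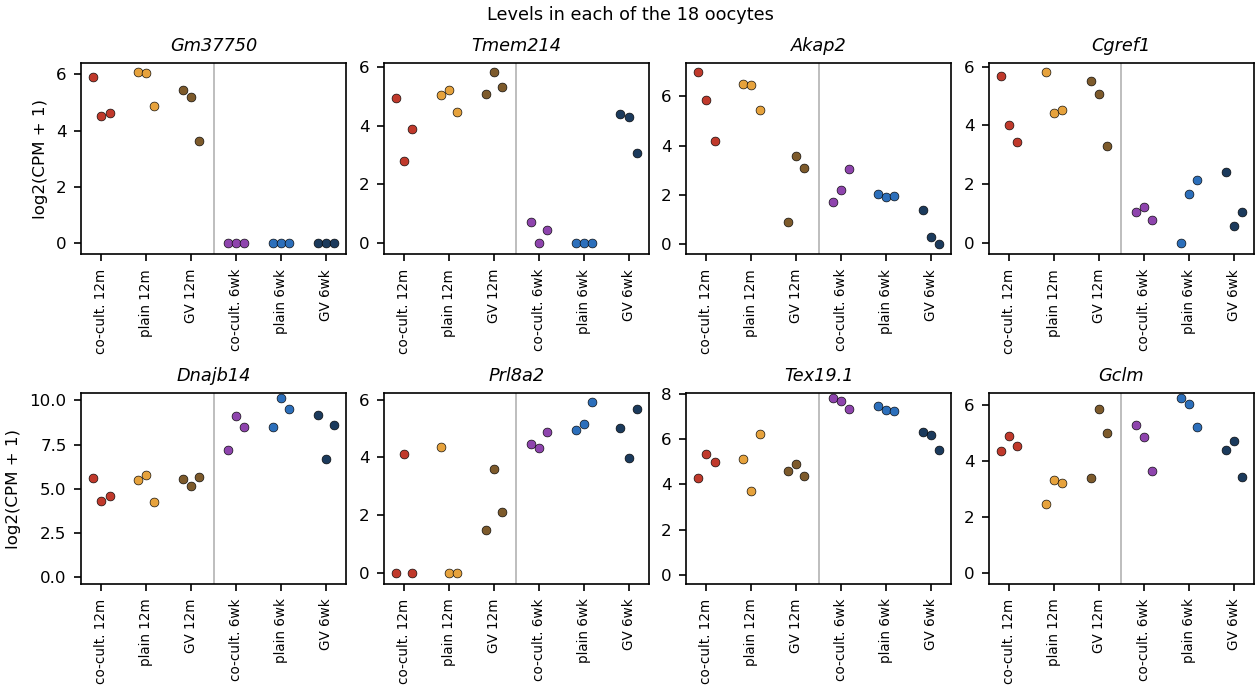
Level of 8 genes in each of the 18 oocytes, as log2(CPM + 1) on the y axis, with the 12m groups left and the 6wk groups right of the grey line. Gm37750 is at 0 in every 6wk oocyte, Dnajb14 and Tex19.1 are lower in every 12m than in every 6wk oocyte of the same kind, and Gclm in co-cultured 12m oocytes lies between the plain 12m and plain 6wk oocytes.

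For other genes the co-cultured 12m oocytes stood apart from plain 12m oocytes as well, though for Mmgt1 these groups overlapped. Lrba, a vesicle trafficking protein gene, had 37.8, 16.8 and 19.7 CPM in co-cultured 12m oocytes, against 7.48, 0.799 and 1.48 CPM in plain 12m and 5.17, 0 and 0 CPM in plain 6wk oocytes, 14.4-fold higher in co-cultured 12m than in plain 6wk oocytes. Mmgt1, of the membrane protein insertion complex of the endoplasmic reticulum, had 26.3, 17.4 and 40.3 CPM in co-cultured 12m, 18.8, 0.4 and 4.45 CPM in plain 12m and 5.17, 0 and 0 CPM in plain 6wk oocytes. The co-cultured 12m oocytes exceeded all plain 6wk oocytes for both genes, and all plain 12m oocytes for Lrba. Pik3cd, a catalytic subunit of PI3K, had 22.7, 45.8 and 28.4 CPM in co-cultured 12m, 0.603, 19.4 and 22 CPM in plain 12m and 16.9, 0 and 0 CPM in plain 6wk oocytes. Tpp1, a lysosomal peptidase, had 0, 9.97 and 7.11 CPM in co-cultured 12m oocytes, against 32.3, 14.8 and 14.2 CPM in plain 12m and 31.5, 26.3 and 19.4 CPM in plain 6wk oocytes, so the co-cultured older oocytes were below both other groups.

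Trim15, a RING finger gene, had the largest difference of the higher protein-coding genes named by the rule, with 31.6, 12.6 and 63.6 CPM in co-cultured 12m, 40.2, 13 and 79.4 CPM in plain 12m and 5.39, 0 and 0 CPM in plain 6wk oocytes. In GV oocytes its levels overlapped, at 37.6, 35.1 and 22.4 CPM at 12m and 48.8, 16 and 30.4 CPM at 6wk. Rdh12, Erp44 and Rpf2 were among the lower genes. Rdh12, a retinol dehydrogenase gene, had 0, 6.92 and 13.6 CPM in co-cultured 12m oocytes, against 146, 19.5 and 19.6 CPM in plain 6wk oocytes. Erp44, a thiol chaperone of the secretory pathway, had 0, 6.92 and 20.1 CPM in co-cultured 12m oocytes and 149, 53.6 and 31.9 CPM in plain 6wk oocytes. For Rdh12 and Erp44 plain 6wk oocyte 1 was the highest of the young oocytes. Rpf2, a ribosome assembly factor, had 2.67, 0.554 and 10.3 CPM in co-cultured 12m oocytes, against 16.4, 47.7 and 51.8 CPM in plain 6wk oocytes, and there plain 6wk oocyte 1 was the lowest of its group. Many of the 30 genes had oocytes at or near 0 in the lower group, where a single library holds few counts. Prl8a2, Stim2, Erp44, Rdh12, Txndc5, Ttyh1, Hdhd2, Tpp1 and Gsdmc2 had 0 CPM in co-cultured 12m oocyte 1, and the other lower genes had counts there. That library had the fewest total counts, 1914072, and the part of its depth in these values was not tested. Exons of 23 of the 106 named genes overlap those of another gene, Dnajb14, Lrba, Mmgt1 and Gclm among them, and whether strand was used in counting is not given in the sources used here.

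**Figure D3:**
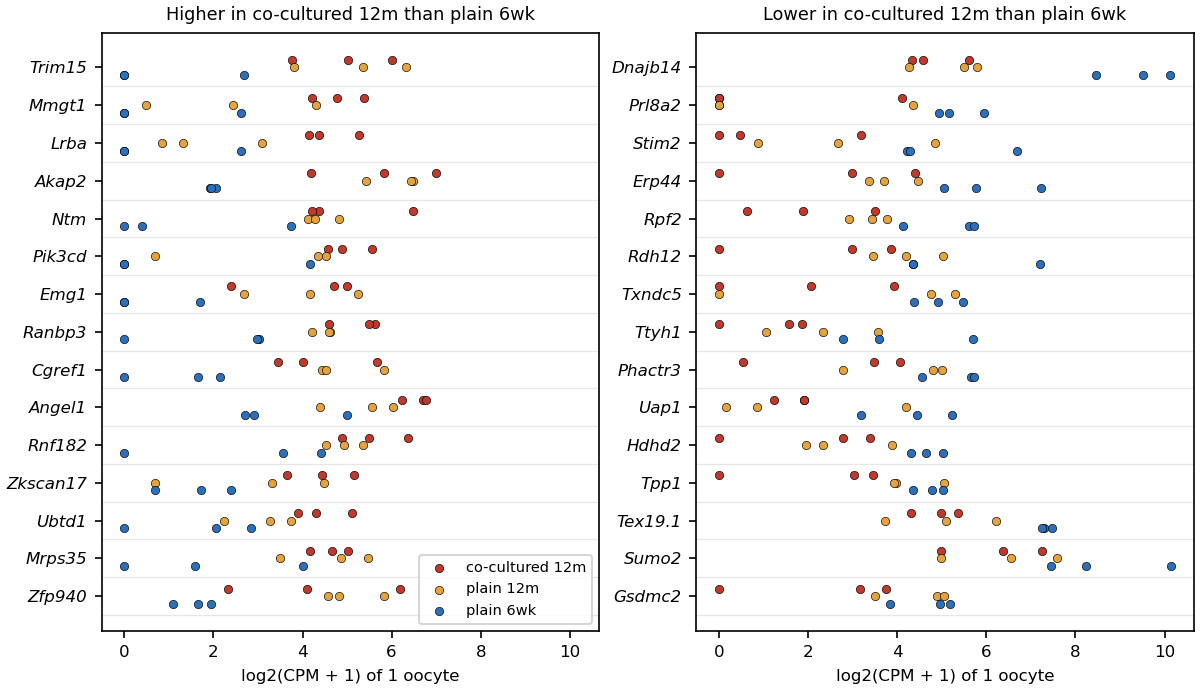
Level of 1 oocyte per point, as log2(CPM + 1) on the x axis, for the 15 genes with the largest differences in each direction between co-cultured 12m and plain 6wk oocytes (left panel higher, right panel lower), with plain 12m oocytes between. Plain 12m points sit beside the co-cultured 12m points for Dnajb14, Akap2 and Cgref1, and nearer to the plain 6wk points for Lrba and Tpp1.

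Between plain 12m and plain 6wk oocytes 462 genes (3.84%) were higher and 164 (1.36%) lower by at least 4-fold. For some of these the co-cultured 12m oocytes lay on the young side of plain 12m oocytes. Gclm, the modifier subunit of glutathione synthesis, had 19.1, 28.5 and 21.7 CPM in co-cultured 12m, 4.47, 8.99 and 8.26 CPM in plain 12m and 73.7, 63.5 and 35.6 CPM in plain 6wk oocytes. Its co-cultured 12m oocytes were above every plain 12m and below every plain 6wk oocyte. Co-cultured 6wk oocytes had 37.7, 28 and 11.4 CPM of Gclm, a range that takes in the co-cultured 12m values. Adipor1, an adiponectin receptor, had 7.57, 15 and 5.92 CPM in co-cultured 12m, 1.21, 5.6 and 4.87 CPM in plain 12m and 12.1, 41.8 and 12.5 CPM in plain 6wk oocytes. Among genes high in plain 12m oocytes, Mrap, an accessory protein of melanocortin receptors, had 7.57, 0 and 8.29 CPM in co-cultured 12m, 104, 12.6 and 23.5 CPM in plain 12m and 7.64, 5.27 and 5.12 CPM in plain 6wk oocytes. Samm50, of the mitochondrial outer membrane sorting machinery, had 0, 0 and 17.6 CPM in co-cultured 12m, 24.5, 30.4 and 19.5 CPM in plain 12m and 1.12, 4.03 and 12.8 CPM in plain 6wk oocytes. Mrap and Samm50 in co-cultured 12m oocytes were on average below the plain 6wk oocytes, with a difference of −0.69 on the log2 scale for Mrap. Co-cultured 6wk oocytes had 37.1, 16.3 and 4.13 CPM of Mrap and 13.1, 12.7 and 9.99 CPM of Samm50. For both genes they were on average above plain 6wk oocytes, with overlap. Of Adipor1 they had 13.3, 8 and 4.82 CPM, on average below plain 6wk oocytes, with overlap. These genes were chosen for lying on the young side of plain 12m oocytes, which is the rule and not a finding.

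Most genes of the meiotic arrest were within 2-fold, as were 74.0% of all genes, and the counts of the lists that follow are to be read against 14.9% of all genes higher and 11.1% lower. Of 19 cyclin B and Cdk1 genes measured, 3 were higher and 1 lower by at least 2-fold (median difference 0.15). Ccnb1, the main cyclin B of the oocyte, had 1077, 1026 and 1068 CPM in co-cultured 12m oocytes and 2126, 1572 and 2542 CPM in plain 6wk oocytes, 1.97-fold lower and without overlap; plain 12m oocytes had 1177, 1028 and 1411 CPM. Cdk1 itself had 6.23, 8.72 and 17 CPM in co-cultured 12m oocytes and 0.225, 0 and 4.56 CPM in plain 6wk oocytes. Among 20 genes of the anaphase-promoting complex and its regulators (2 higher, 3 lower, median 0.12), Cdc20, the activator that ends the arrest, had 57.4, 169 and 132 CPM in co-cultured 12m oocytes and 406, 272 and 549 CPM in plain 6wk oocytes, 3.42-fold lower and without overlap. Its exons overlap those of Elovl1.

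Of 25 spindle checkpoint and kinetochore genes, 4 were higher and 4 lower (median −0.02). Bub3, a checkpoint protein gene, had 38.3, 83 and 197 CPM in co-cultured 12m oocytes, below the 209, 217 and 209 CPM of plain 6wk oocytes. Spc24, of the kinetochore complex that binds microtubules, had 21.8, 16.6 and 24.5 CPM in co-cultured 12m oocytes, above the 4.72, 5.89 and 7.69 CPM of plain 6wk oocytes. Of 23 cohesin and cohesion genes 3 were higher and 1 lower (median 0.13). Pttg1, the securin gene and their most abundant member, had 10486, 4417 and 5606 CPM in co-cultured 12m oocytes and 4032, 6636 and 7357 CPM in plain 6wk oocytes, which overlap.

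Among abundant maternal mRNAs, some were lower in co-cultured 12m oocytes and others were level with young ones. H1foo, the oocyte linker histone, had 1692, 7792 and 1753 CPM in co-cultured 12m oocytes and 20874, 6494 and 11437 CPM in plain 6wk oocytes, 3.45-fold lower, with oocyte 2 of each group overlapping. Btg4, which brings the deadenylase to maternal mRNA, had 4743, 5914 and 7538 CPM in co-cultured 12m oocytes and 5642, 6281 and 6516 CPM in plain 6wk oocytes. Bcl2l10, an abundant BCL2 family gene of oocytes, had 7013, 11551 and 8872 CPM in co-cultured 12m oocytes and 14721, 14529 and 14348 CPM in plain 6wk oocytes, without overlap but under 2-fold on the log scale (difference −0.7). Slbp, which binds histone mRNA, had 2812, 4975 and 4253 CPM in co-cultured 12m oocytes, against 6862, 6651 and 9052 CPM in plain 6wk oocytes. Of 24 oocyte and zona genes 2 were higher and 2 lower, and of 17 subcortical maternal complex and NLRP genes none was higher and 2 were lower, with medians of 0.03 and 0.21. Dppa3, Tcl1 and mt-Atp6 were among the 10 genes of highest TPM, a level per transcript length, in the co-cultured 12m oocytes.

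Most gene lists had a median difference close to 0. For co-cultured 12m against plain 6wk oocytes 29 of 33 lists were within 0.5 of 0, and for plain 12m against plain 6wk oocytes 30 of 33. A median near 0 means that higher and lower members balance, so these counts do not measure nearness to young oocytes. The list whose medians were farthest apart between these comparisons held the nuclear genes of oxidative phosphorylation. Of its 76 genes, 6 were higher and 5 lower in co-cultured 12m than in plain 6wk oocytes (median −0.05), where 14.9% of all genes were higher and 11.1% lower. In plain 12m against plain 6wk oocytes 33 were higher and 3 lower (median 0.79), where 18% of all genes were higher and 9.08% lower. Of 80 ribosomal protein genes, 10 were higher and 8 lower in co-cultured 12m oocytes (median 0.17), and 21 higher and 5 lower in plain 12m oocytes (median 0.62), each against plain 6wk oocytes. Ribosomal protein genes have many near-identical pseudogenes, so how reads were split among copies bears on their counts. Sdhb, an iron-sulfur subunit of succinate dehydrogenase, had 58.7, 0 and 35.9 CPM in co-cultured 12m, 80.9, 12.8 and 86.4 CPM in plain 12m and 0.225, 15.5 and 7.69 CPM in plain 6wk oocytes. Cox6a1, a subunit gene of cytochrome oxidase, had 22.7, 10.2 and 113 CPM in co-cultured 12m, 291, 15 and 88.1 CPM in plain 12m and 8.99, 16.7 and 14.5 CPM in plain 6wk oocytes. For both genes co-cultured 12m oocyte 2 was the lowest of its group.

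**Figure D4:**
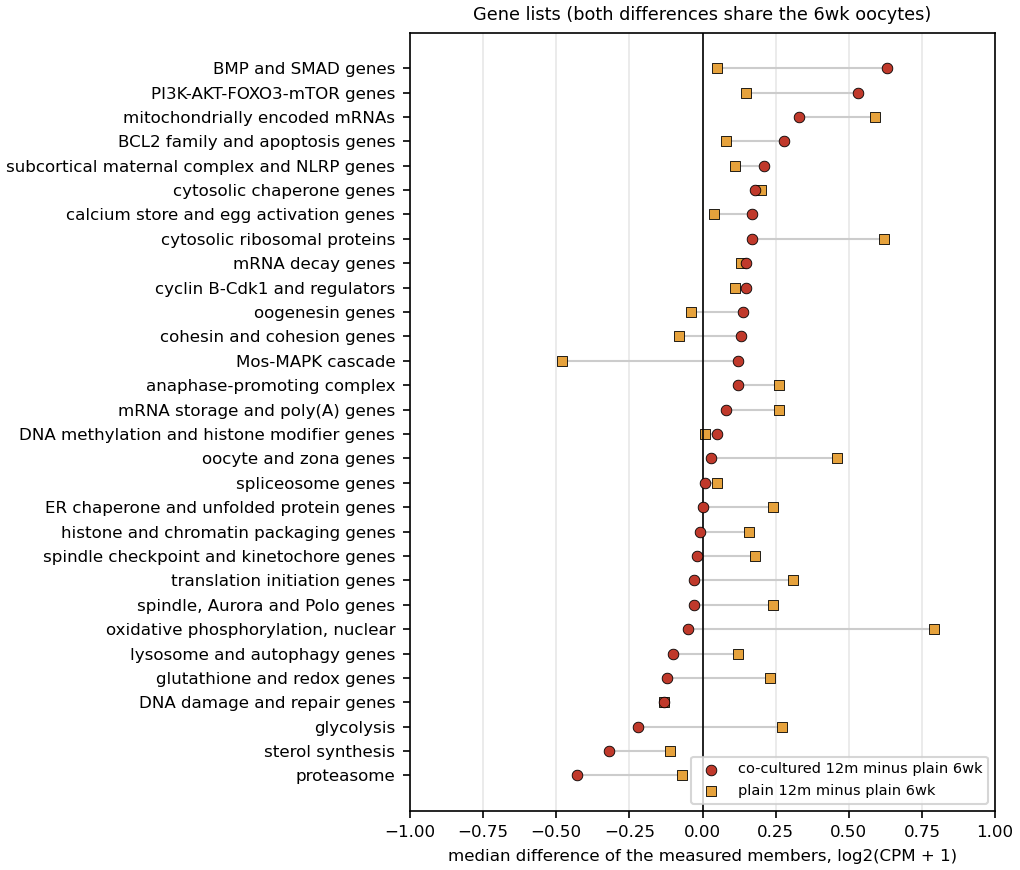
Median difference of each gene list's measured members on the x axis, log2(CPM + 1), for co-cultured 12m minus plain 6wk oocytes (circles) and plain 12m minus plain 6wk oocytes (squares), which share the 6wk oocytes; marker lists of other cells are left out. For nuclear oxidative phosphorylation genes the circle is at −0.05 and the square at 0.79.

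These medians rested on oocytes that differed strongly within a group. The oxidative phosphorylation score, the median log2(CPM + 1) of the list's members in an oocyte, was 4.23, 2.6 and 4.5 in co-cultured 12m, 5.11, 4.05 and 4.98 in plain 12m and 2.43, 4.26 and 3.79 in plain 6wk oocytes. The low co-cultured 12m oocyte and the low plain 6wk oocyte were the same close pair as above. Without co-cultured 12m oocyte 2 the list's median difference was 0.49, and without plain 6wk oocyte 1 it was −0.43, so single oocytes turned its sign; without both it was 0.14. For plain 12m against plain 6wk oocytes it stayed above 0 with any 1 oocyte left out, at 0.44 to 1.10. The ribosomal protein scores had the same low oocytes, at 3.49, 2.16 and 3.4 in co-cultured 12m and 2.27, 3.9 and 2.8 in plain 6wk oocytes.

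The same 2 oocytes were the high ones of their groups for other lists. The cohesin score was 4.54, 6.17 and 4.12 in co-cultured 12m and 5.88, 3.71 and 4.35 in plain 6wk oocytes. The mRNA decay score was 4.19, 4.9 and 4.21 in co-cultured 12m and 5.23, 3.32 and 3.6 in plain 6wk oocytes, and the DNA methylation and histone modifier score was 3.87, 4.79 and 3.88 in co-cultured 12m and 4.98, 3.39 and 2.97 in plain 6wk oocytes. Smc3, a core cohesin subunit, had 20, 549 and 0.592 CPM in co-cultured 12m oocytes and 944, 12.1 and 50.7 CPM in plain 6wk oocytes. For these lists the spread between oocytes of a group was larger than the difference between the groups. Mitochondrially encoded mRNAs took another order, with scores of 11.86, 11.19 and 10.48 in co-cultured 12m and 9.05, 11.5 and 11.39 in plain 6wk oocytes, where only oocyte 1 was low.

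**Figure D5:**
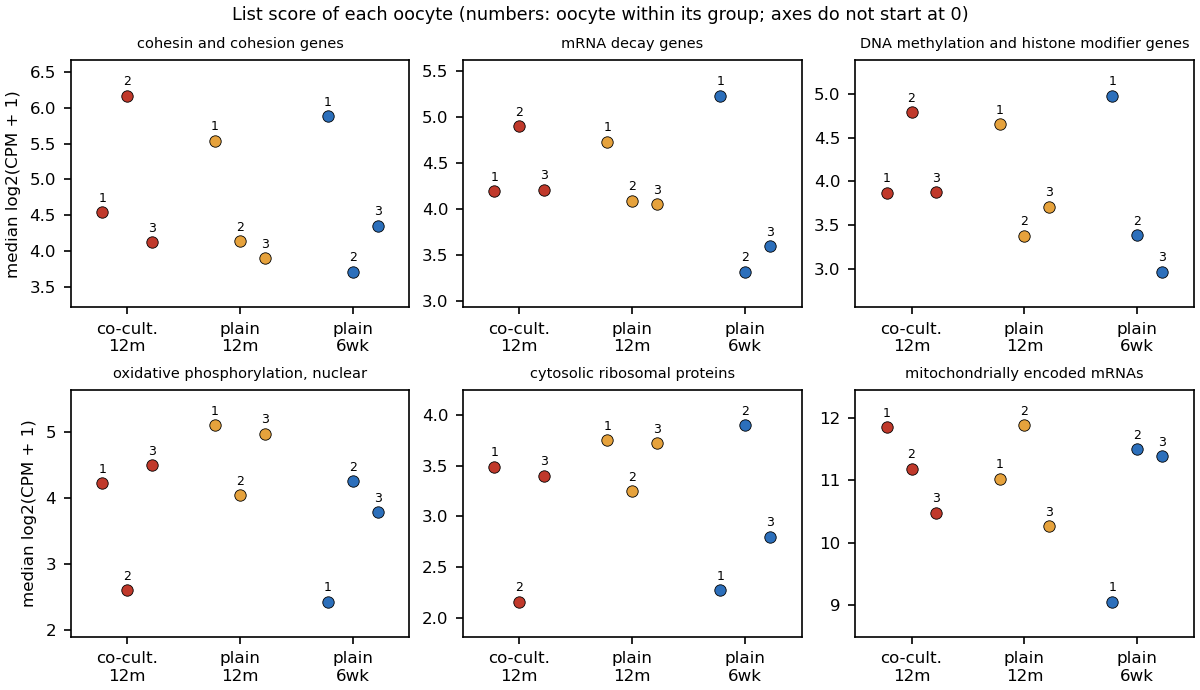
Score of 6 gene lists in each oocyte on the y axis (median log2(CPM + 1) of the members), with co-cultured 12m, plain 12m and plain 6wk oocytes from left to right and each point numbered by its oocyte. Co-cultured 12m oocyte 2 and plain 6wk oocyte 1 are the high ones of their groups for cohesin, decay and modifier genes and the low ones for oxidative phosphorylation and ribosomal protein genes.

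Mitochondrially encoded mRNAs were above 0 for 12 of 13 genes in co-cultured 12m against plain 6wk oocytes, but 1 was past 2-fold (median 0.33). This was mt-Co1, a core subunit of cytochrome oxidase, with 14105, 19612 and 7821 CPM in co-cultured 12m, 5791, 14242 and 5233 CPM in plain 12m and 4598, 5133 and 5214 CPM in plain 6wk oocytes. Mitochondrial reads have near-identical copies in the nuclear genome, among them Gm28437, which was also among the 10 highest genes by TPM. Without plain 6wk oocyte 1 the list's median was −0.38.

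Among proteasome genes more were lower than higher in co-cultured 12m oocytes. Of 37 measured, 30 had a difference below 0, 9 were lower and 1 higher by at least 2-fold in co-cultured 12m than in plain 6wk oocytes (median −0.43), where 11.1% of all genes were lower, against 2 lower and 1 higher in plain 12m than in plain 6wk oocytes (median −0.07), where 9.08% of all genes were lower. Psma2, of the catalytic core, had 580, 205 and 394 CPM in co-cultured 12m, 528, 599 and 563 CPM in plain 12m and 1137, 639 and 671 CPM in plain 6wk oocytes. Psmd12, of the regulatory lid, had 30.3, 106 and 77.8 CPM in co-cultured 12m oocytes and 140, 136 and 176 CPM in plain 6wk oocytes. Psmc4, an ATPase of the base, had 0, 7.76 and 12.6 CPM in co-cultured 12m oocytes and 14.6, 42.1 and 18.8 CPM in plain 6wk oocytes. The groups did not overlap for these 3 genes. The list's median stayed below 0 with any 1 oocyte left out, at −0.60 to −0.10 (−0.10 without co-cultured 12m oocyte 2), and its scores of 5.73, 5.74 and 5.75 in co-cultured 12m oocytes lay within the 5.31, 6.61 and 6.03 of plain 6wk oocytes.

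BMP and SMAD genes and PI3K pathway genes had the highest medians of the lists outside the marker lists of other cells. Of 19 BMP and SMAD genes 7 were higher and none lower by at least 2-fold in co-cultured 12m than in plain 6wk oocytes (median 0.63), where 14.9% of all genes were higher, against 3 higher and 2 lower in plain 12m than in plain 6wk oocytes (median 0.05). Id3, a target of BMP signalling, had 17.8, 1.25 and 14.2 CPM in co-cultured 12m, 5.07, 33.8 and 19.3 CPM in plain 12m and no count in plain 6wk oocytes. Smad3, a signal transducer, had 11.6, 66.6 and 4.74 CPM in co-cultured 12m oocytes and 78.7, 5.27 and 0 CPM in plain 6wk oocytes. Bmp6, a ligand made by the oocyte, had 16.5, 13.3 and 11.3 CPM in co-cultured 12m oocytes and 9.89, 3.1 and 5.69 CPM in plain 6wk oocytes; its exons overlap those of Txndc5. Scores of this list were 1.88, 3.84 and 2.52 in co-cultured 12m and 3.07, 0 and 0 in plain 6wk oocytes, so most members had no counts in plain 6wk oocytes 2 and 3 and the list sits near the limit of detection. Those oocytes also had fewer genes with a count over all genes, 9214 and 9036, than plain 6wk oocyte 1, with 11808. The part of such detection in the list medians was not tested. The median of the BMP and SMAD list was 0.18 without co-cultured 12m oocyte 2 and 1.47 without plain 6wk oocyte 1.

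Of 26 PI3K, AKT, FOXO3 and mTOR genes 6 were higher and 1 lower in co-cultured 12m than in plain 6wk oocytes (median 0.53), against 4 higher and 3 lower in plain 12m than in plain 6wk oocytes (median 0.15). Over all genes 14.9% were higher and 11.1% lower in co-cultured 12m, and 18% higher and 9.08% lower in plain 12m than in plain 6wk oocytes. Deptor, an inhibitor of mTOR, had 241, 1185 and 336 CPM in co-cultured 12m oocytes and 412, 121 and 93.4 CPM in plain 6wk oocytes. Pdpk1, a kinase that activates AKT, had 55.2, 149 and 25.3 CPM in co-cultured 12m oocytes and 146, 18.6 and 2.28 CPM in plain 6wk oocytes. For both genes co-cultured 12m oocyte 2 and plain 6wk oocyte 1 were the highest of their groups, and the groups overlapped. The list's median was 0.19 without co-cultured 12m oocyte 2 and 1.21 without plain 6wk oocyte 1.

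Lists of stress and metabolism had medians of −0.32 to 0.28, beside 0.04 over all genes, of which 14.9% were higher and 11.1% lower. Of 39 glutathione and redox genes 2 were higher and 7 lower in co-cultured 12m than in plain 6wk oocytes (median −0.12), Gclm among them. Of 21 sterol synthesis genes 1 was higher and 4 were lower (median −0.32). Of 51 DNA damage and repair genes 6 were higher and 9 lower (median −0.13). Of 21 BCL2 family and apoptosis genes 4 were higher and 1 lower (median 0.28), led among the better expressed by Bcl2l1, an anti-apoptotic member, at 66.3, 43.3 and 72.1 CPM in co-cultured 12m oocytes and 6.29, 40.6 and 34.2 CPM in plain 6wk oocytes. Chaperone genes of the cytosol went both ways: of the chaperonin subunits, Tcp1 had 41.4, 53.2 and 48.2 CPM in co-cultured 12m oocytes and 20.2, 3.1 and 17.1 CPM in plain 6wk oocytes, whereas Cct7 had 3.12, 19 and 41.5 CPM in co-cultured 12m oocytes and 41.6, 65.7 and 147 CPM in plain 6wk oocytes. Both have exons that overlap other genes.

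A few genes set plain 6wk oocyte 1 apart from the other plain 6wk and the co-cultured 12m oocytes. Mos, the kinase that holds the metaphase arrest, had 12, 0.277 and 4.54 CPM in co-cultured 12m oocytes and 1258, 4.96 and 6.26 CPM in plain 6wk oocytes. Gdf9, an oocyte growth factor that acts on cumulus cells, had 2067, 2212 and 1609 CPM in co-cultured 12m oocytes and 17328, 571 and 1576 CPM in plain 6wk oocytes. Plat, a plasminogen activator, had 0, 126 and 23.1 CPM in co-cultured 12m oocytes and 4068, 30.4 and 28.2 CPM in plain 6wk oocytes. In GV 6wk oocytes Mos was at 952, 798 and 842 CPM and Gdf9 at 12469, 12511 and 12045 CPM, so plain 6wk oocyte 1 held levels of these mRNAs in or above the range of young GV oocytes. Co-cultured 6wk oocyte 1, its nearest oocyte and the other 6wk metaphase II oocyte with the title prefix Y01, had the same pattern, with 641 CPM of Mos, 12625 CPM of Gdf9 and 1962 CPM of Plat. The mitochondrial share of counts was 3.22% in plain 6wk oocyte 1, against 8.17 to 13.2% in the co-cultured 12m oocytes and 11.7 and 10.1% in the other plain 6wk oocytes. The highest granulosa marker sum, 1374 CPM, was also found in plain 6wk oocyte 1.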

How the data were processed

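Single oocytes were profiled by SMART-seq2, per the labels' protocols. Each deposited table lists expected counts, TPM and FPKM per gene, per the file headers. Expected counts, as deposited by the authors, need not be whole and were rounded. TPM values deposited by the authors ranked the most abundant genes and gave an alternative unit; FPKM was not used. Per the submitters' processing notes, the build was GRCm38.p5 (mm10) and the tools were TopHat2 2.1.1, Cufflinks, Trim Galore 0.4.5 and FastQC 0.11.8. Which tool and annotation gave the expected counts is not given in the sources used here. Symbols and coordinates came from GENCODE M21.

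Groups followed the source labels. Totals were scaled by TMM over all 18 libraries in edgeR 4.0.16 (R 4.3.3), and low genes were removed with filterByExpr by group. A difference is that between group means of log2(CPM + 1), which understates weakly expressed genes. Folds are ratios of mean CPM, and a group with no count was given a floor of 3 counts per library. Intervals are exact Poisson 95% intervals on summed counts. Reads carry no molecular identifiers, so these intervals and the floor cover counting error only. No test was made, since each group is 1 sample. The computation was tested on simulated data.

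The comparison, the 33 gene lists (1057 symbols, of which 931 were measured) and the rule for named genes were chosen with earlier results of these data known. The 106 named genes had to reach 20 CPM on average in the higher group with no overlap of oocytes, and predicted genes, Riken clones and pseudogenes were left out. The rule took the 15 largest differences each way, up to 4 members of each list or its most abundant member, the 10 highest genes by TPM in each group, up to 6 each way that lay on the young side of plain 12m oocytes or in which both 12m groups were apart from young oocytes, and Mos, Gdf9 and Plat. The limits did not apply to the genes picked by TPM, abundance or name. Cdk1, Id3, Smad3, Bmp6, Smc3, Sdhb, Cox6a1, Deptor, Pdpk1 and the stromal gene Spp1 were named after their values were seen. Some named genes are not reported here. Counts of the libraries compared in pairs differed by more than sampling noise. Other steps used Python 3.11.15 (pandas 2.3.3, NumPy 2.4.6, Matplotlib 3.10.9, SciPy 1.17.1).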

Additional observations from a re-analysis of the deposited data

Results flagged for a closer look

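For 2 named genes every co-cultured oocyte stood on one side of every plain oocyte at 12m and on the other side at 6wk; the difference between the ages was not tested. Asf1b, a histone chaperone gene, differed by −1.09 on the log2(CPM + 1) scale between co-cultured and plain oocytes at 12m and by 0.58 at 6wk. It had 307, 677 and 475 CPM in co-cultured 12m, 1024, 786 and 1176 CPM in plain 12m, 944, 1117 and 1502 CPM in co-cultured 6wk and 789, 759 and 797 CPM in plain 6wk oocytes. AU015836 differed by −2.15 at 12m and by 1.66 at 6wk, with 3.56, 9.69 and 24.7 CPM in co-cultured 12m, 74.7, 42.4 and 32.6 CPM in plain 12m, 31.8, 29 and 41 CPM in co-cultured 6wk and 22, 11.8 and 3.42 CPM in plain 6wk oocytes. It was named for plain 12m oocytes above both co-cultured 12m and plain 6wk oocytes. Its 12m side and its low plain 6wk values were therefore set by the rule. Asf1b was named for co-cultured 12m oocytes below plain 6wk oocytes. How many of all genes turn in this way was not counted.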

How the results depend on the processing

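The 12 alternatives (other size factors, library totals alone or without mitochondrial genes, 1 depth, TPM, other pseudocounts, filters, medians or ratios of group means) and the 9 oocytes left out in turn kept the sign of all 30 genes with the largest differences, and each of the 30 was at least 2-fold apart with any 1 oocyte left out. These 30 were chosen for large differences without overlap, so leaving out an oocyte or changing the pseudocount could not turn their sign. Their outcome was in large part fixed by that choice. Of 106 named genes 20 had another sign somewhere. Leaving out co-cultured 12m oocyte 2 and plain 6wk oocyte 1 together was chosen after seeing the data. It turned Mos to 0.37 (−4.40 to −0.54 with 1 oocyte left out) and gave 2853 higher genes, 1723 higher and 1022 lower without overlap, a histone list median of −0.15 and a distance of 1.56 within plain 6wk oocytes. Counts past 2-fold depend on how low values are treated; for the rest the cause was not tested. No paired analysis was possible because replicate numbers were given in accession order, no test was made, and no title prefix occurs in both co-cultured 12m and plain 6wk oocytes.

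For co-cultured 12m against plain 6wk oocytes, higher and lower genes numbered 575 and 401 with a pseudocount of 5 (without overlap 186 and 156), 2942 and 2409 with a pseudocount of 0.1, and 969 and 692 (without overlap 180 and 167) over genes with a mean of at least 10 CPM. For plain 12m against plain 6wk oocytes they numbered 822 and 334 (394 and 127) with a pseudocount of 5, 3459 and 1929 with 0.1, and 1175 and 550 (368 and 126) at 10 CPM; higher genes numbered 1420 with scaling and filter within the groups compared and 1346 on TPM, with 325 lower without overlap on TPM. For co-cultured 12m against plain 12m oocytes they numbered 374 and 539 (151 and 178) with a pseudocount of 5, 2083 and 3121 with 0.1, and 638 and 935 (146 and 182) at 10 CPM, with 1085 lower, 204 of them without overlap, on TPM.

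Distances within co-cultured 12m, within plain 12m and within plain 6wk oocytes, between co-cultured 12m and plain 6wk, plain 12m and plain 6wk, and co-cultured 12m and plain 12m oocytes were, in this order, 1.09, 0.96, 1.19, 1.09, 1.07 and 1.00 with a pseudocount of 5, 2.98, 2.69, 3.09, 2.95, 2.89 and 2.78 with 0.1, and 1.36, 1.24, 1.44, 1.36, 1.34 and 1.27 with no filter. On TPM they were 1.57 within co-cultured 12m, 1.38 within plain 12m, 1.53 between plain 12m and plain 6wk and 1.44 between co-cultured 12m and plain 12m oocytes.

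With 1 oocyte left out, counts without overlap are larger by construction. For co-cultured 12m against plain 6wk oocytes higher genes ran from 1752 to 2868, and those without overlap from 518 to 1269 higher and 380 to 782 lower. For plain 12m against plain 6wk oocytes lower genes ran from 1221 to 1644, and those without overlap from 895 to 1407 higher and 391 to 609 lower. For co-cultured 12m against plain 12m oocytes higher genes ran from 1298 to 1893, and those without overlap from 466 to 695 higher and 641 to 1047 lower. For co-cultured 12m against plain 6wk oocytes the median over all genes ran from 0.00 to 0.15, of translation initiation genes from −0.34 to 0.37, of cytosolic chaperone genes from −0.21 to 0.45 and of histone genes from −0.19 to 0.08. Distances ran from 1.67 to 1.93 within co-cultured 12m, 1.49 to 1.71 within plain 12m and 1.56 to 2.12 within plain 6wk oocytes.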
